A study of Mus musculus with 30 samples.

Results

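The samples compared here were 20 of 30 RNA-seq libraries of mouse retinal pigment epithelium (RPE), the pigmented cell layer behind the photoreceptors, sorted by how much myelin RNA each contained. The samples were selected on the measured level of Mobp, a gene of central nervous system myelin, by which all 30 libraries were ranked. The 10 highest are called myelin-rich and the 10 lowest myelin-poor, and the 10 libraries between them were set aside. Because a measured value chose the sides, every gene compared between them is given as a description without a test. Tests were kept for what the ranking did not use: the time of day, the eye, the animal number and the 24 h rhythm.

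The study collected RPE through the day and night from male mice of the C57BL/6 strain, wild type and between 10 and 13 weeks of age. Zeitgeber time (ZT) counts hours from lights-on by convention, and 5 mice were sampled at ZT0, ZT2, ZT4, ZT9, ZT14 and ZT19. Each library came from 1 eye of a separate mouse, and no mouse carried a transgene or received a treatment according to the labels. The front of the eye and the retina were removed, and clumps of RPE were then lifted from the eyecup with forceps. Values are FPKM, fragments scaled by transcript length and sequencing depth, and differences are between means of log2(FPKM + 1), rich minus poor.

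Myelin is the lipid-rich sheath that insulates axons. Oligodendrocytes make it in the central nervous system, the optic nerve included, whereas Schwann cells make it in peripheral nerves with a partly different set of proteins. In the mouse the optic nerve is myelinated behind the eye, and RPE cells themselves form no myelin.

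An estimate from low FPKM values put the depth at 15.5 to 22.8 M reads (M: mega) in the myelin-rich and 15 to 22.9 M in the myelin-poor samples. ZT14 replicate 3, on the myelin-rich side, stood apart: it had 12754 genes above 0, against 16723 to 19374 in the other 29 samples. Among genes with a median of 10 FPKM or more elsewhere, 557 were listed at 0 in it. The count of fully separated genes (described below) and the ranking by Opalin are therefore also given without it. Differences of single genes, list medians and amplitudes on the sides include it unless stated. RPE markers were present on both sides. Rpe65, the retinoid isomerase of the visual cycle, had 492, 1117 and 1648 FPKM (lowest, median and highest) in the myelin-rich samples and 679, 964 and 1464 FPKM in the myelin-poor ones. Best1, an RPE chloride channel gene, was listed at or near 0 on both sides, with medians of 0.56 and 1.27 FPKM.

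The stretch before the start of 3 genes is shown here because Mobp set the ranking, Opalin was the other marker, and Ugt8a had a wide gap between the sides. Ugt8a, which encodes the enzyme that makes galactosylceramide of the sheath, was the gene with the largest difference after Mobp among the fully separated genes that had exactly 1 promoter in the RefSeq table. Each run is 250 bases before the RefSeq start on GRCm38.p6, written 5′ to 3′ on the gene's strand. Capitals mark ACAAAG or its reverse complement CTTTGT, the letters of a core bound by SOX-family factors such as the oligodendrocyte factor SOX10. The runs are Mobp at chr9:120149492-120149741 (plus strand), Opalin at chr19:41077114-41077363 (minus strand) and Ugt8a at chr3:125938653-125938902 (minus strand).
Mobp: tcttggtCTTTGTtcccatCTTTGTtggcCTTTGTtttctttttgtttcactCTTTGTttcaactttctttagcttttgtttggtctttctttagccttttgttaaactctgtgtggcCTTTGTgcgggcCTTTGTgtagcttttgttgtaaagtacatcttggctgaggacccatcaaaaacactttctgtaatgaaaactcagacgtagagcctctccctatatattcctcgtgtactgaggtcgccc
Opalin: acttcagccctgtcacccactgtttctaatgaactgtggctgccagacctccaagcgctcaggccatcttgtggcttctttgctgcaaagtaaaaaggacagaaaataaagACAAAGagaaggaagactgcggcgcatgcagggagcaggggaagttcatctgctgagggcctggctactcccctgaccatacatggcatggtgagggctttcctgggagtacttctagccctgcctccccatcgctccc
Ugt8a: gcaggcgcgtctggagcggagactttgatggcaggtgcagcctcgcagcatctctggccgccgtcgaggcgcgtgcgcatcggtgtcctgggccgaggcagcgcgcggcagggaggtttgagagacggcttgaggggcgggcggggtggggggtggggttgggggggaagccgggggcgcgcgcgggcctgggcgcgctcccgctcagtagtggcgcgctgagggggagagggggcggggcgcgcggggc

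The Mobp run held the letters 6 times, all as CTTTGT, the Opalin run held them 1 time as ACAAAG, and the Ugt8a run did not hold them. The base makeup also differed, with G and C at 40.8% in Mobp, 54.4% in Opalin and 76.8% in Ugt8a. Of all 32851 promoters in the table, 5408 (16.5%) held the letters on either strand in the same window. Among the 78 genes fully separated between the sides (described below), 54 had a promoter in the table, and 16 of these 54 genes (29.6%) had at least 1 promoter with the letters. Counted by promoter, the unit of the 16.5%, that was 18 of 73 (24.7%), and promoters of 1 gene often overlap. A gene with more than 1 promoter has more chances to hold the letters, and no share by gene is given for the whole table. A match describes letters only and is not a measured binding site.

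Mobp (ENSMUSG00000032517, chromosome 9, 120149707 to 120181484, plus strand, GRCm38) encodes a small basic protein that packs the myelin sheath. In the myelin-rich samples its level was 1870 FPKM in ZT14 replicate 5, 1390 in ZT19 replicate 3, 1374 in ZT14 replicate 3, 913 in ZT9 replicate 1, 883 in ZT4 replicate 3, 724 in ZT2 replicate 3, 664 in ZT14 replicate 2, 662 in ZT19 replicate 2, 655 in ZT4 replicate 4 and 635 in ZT0 replicate 5. In the myelin-poor samples it was 159 FPKM in ZT9 replicate 3, 123 in ZT14 replicate 1, 117 in ZT0 replicate 3, 101 in ZT9 replicate 4, 85.4 in ZT9 replicate 2, 48.9 in ZT9 replicate 5, 43.6 in ZT14 replicate 4, 28.3 in ZT4 replicate 2, 17.3 in ZT19 replicate 4 and 0.166 in ZT4 replicate 5. The levels fell along a slope without a gap at either edge: the nearest samples left out had 634 FPKM (ZT0 replicate 4) and 167 FPKM (ZT0 replicate 1). An exon of Mobp overlaps the predicted gene Gm38642 on the same strand, and how shared reads were assigned is not given in the sources used here.

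**Figure D1:**
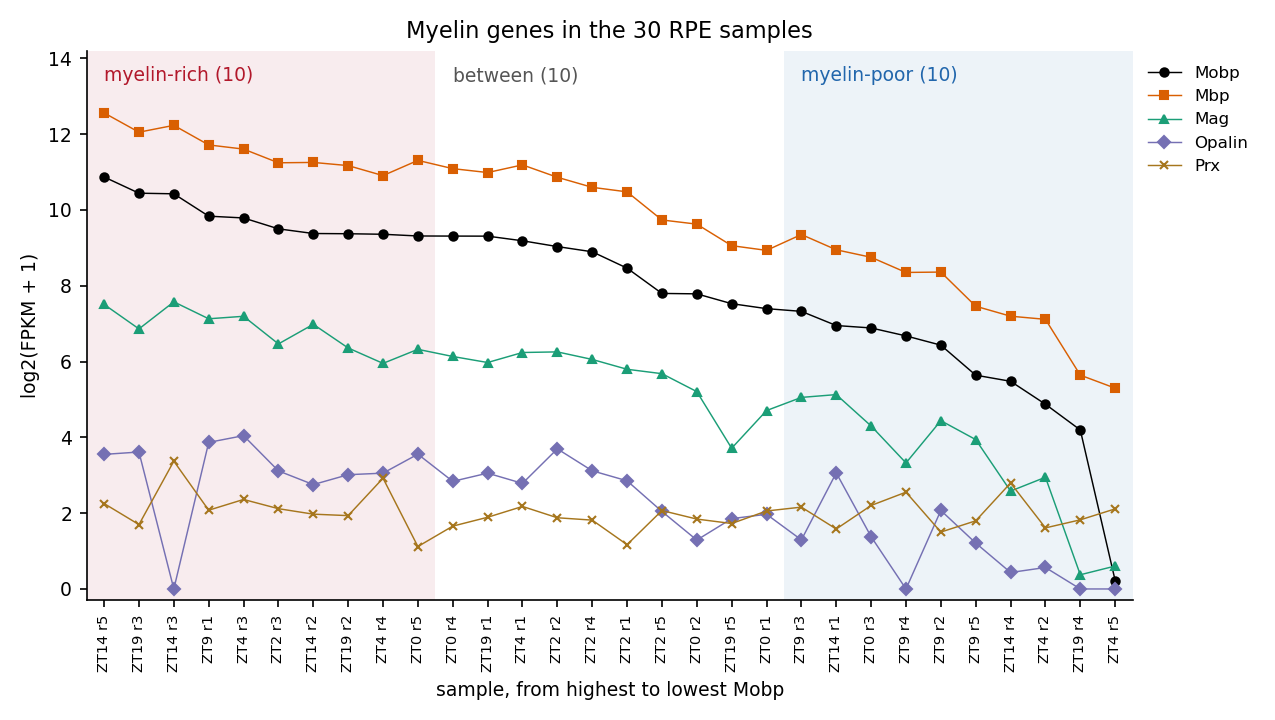
Level of 4 central myelin genes and of the Schwann cell gene Prx in all 30 samples, ordered from highest to lowest Mobp; the vertical axis is log2(FPKM + 1), lines join values of 1 gene, and shading marks the sides. Mbp and Mag follow Mobp down the order, Opalin is listed at 0 in ZT14 replicate 3, and Prx stays low throughout.

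Opalin (ENSMUSG00000050121, chromosome 19, 41061710 to 41077113, minus strand), a membrane glycoprotein gene of oligodendrocytes, was low and did not follow Mobp in every sample. Its lowest, median and highest levels were 0, 9.19 and 15.5 FPKM on the rich side and 0, 0.898 and 7.36 FPKM on the poor side, a difference of 2.06. The sides overlapped. The 0 on the rich side was ZT14 replicate 3, which had the third highest Mobp level, and the 7.36 FPKM on the poor side was ZT14 replicate 1. Opalin was also listed at 0 in ZT9 replicate 4, ZT19 replicate 4 and ZT4 replicate 5.

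Both sides drew on several times of day. The myelin-rich side held 3 samples of ZT14, 2 each of ZT4 and ZT19, and 1 each of ZT0, ZT2 and ZT9. The myelin-poor side held 4 samples of ZT9, 2 each of ZT4 and ZT14, 1 each of ZT0 and ZT19, and none of ZT2. The difference in make-up by time point did not pass Fisher's exact test (two-sided p = 0.779). Left eyes made up 6 of 10 rich and 7 of 10 poor samples (exact p = 1), and the runs of animal numbers in the labels gave exact p = 0.836. Adjusted over these 3 tests by the Benjamini-Hochberg method, each p was 1. With 10 samples a side, these tests leave room for an uneven make-up, such as the 4 of 5 ZT9 mice on the poor side.

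The level of Mobp spread widely inside each time point. At ZT14 it ran from 43.6 to 1870 FPKM, at ZT4 from 0.166 to 883 FPKM, and at ZT19 from 17.3 to 1390 FPKM among 5 mice. ZT2 had the narrowest spread of the 6 time points, with 221 to 724 FPKM. Across all 30 samples, a limma F test with 1 mean per time point gave Mobp an adjusted p of 0.906, Mbp 0.940 and Mag 0.915. In that test 12 of 16741 genes passed an adjusted p of 0.05 (0.0717%), and none of them belongs to the lists of oligodendrocyte genes.

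No difference between left and right eyes was found for these genes. Mobp had a median of 345 FPKM in 16 left and 414 FPKM in 14 right eyes, and the fit with time point as a term put the left eye at -0.31 ± 1.00 (estimate ± SE, log2) relative to the right, adjusted p = 0.937 in limma. No gene passed in that test (0 of 16741, 0%), while 1855 had an unadjusted p under 0.05, and the smallest adjusted p was 0.0940 for Tnk1. Because the SE for Mobp was as wide as a 2-fold difference, a moderate difference between eyes was not detectable here.

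**Figure D2:**
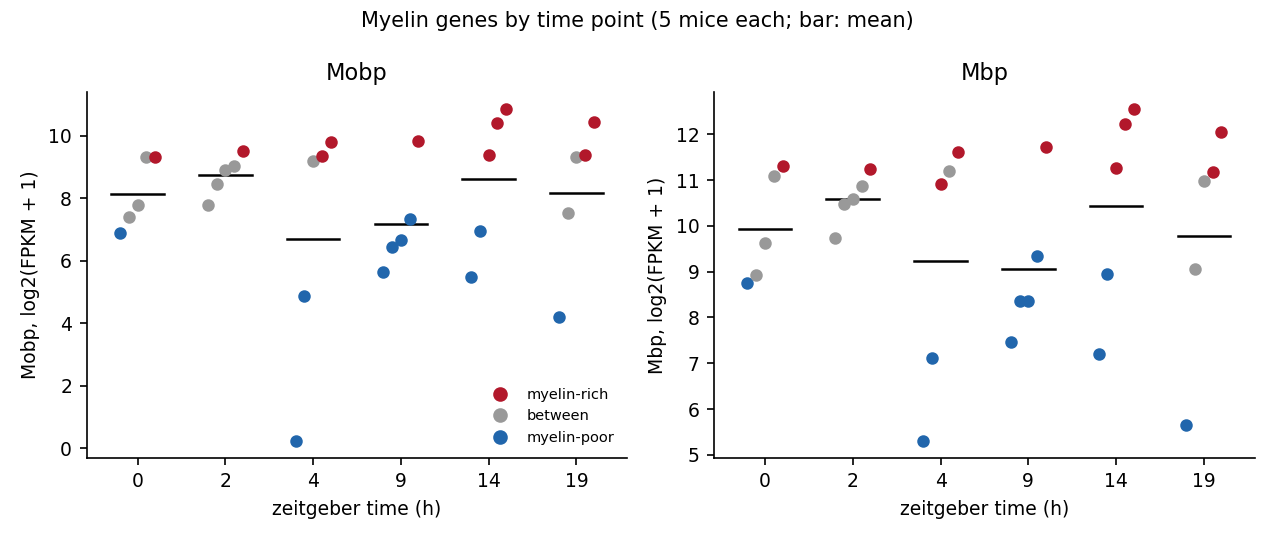
Mobp and Mbp as log2(FPKM + 1) at each zeitgeber time, with 5 mice a time point, the mean as a bar, and colours for the side of each sample. Rich and poor samples occur together at ZT0, ZT4, ZT9, ZT14 and ZT19, and at ZT14 Mobp runs from 43.6 to 1870 FPKM.

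Of 16741 genes with at least 1 FPKM in at least 5 samples, 78 were fully separated and higher on the rich side (0.466%), which means that each of the 10 rich values lay above each of the 10 poor values. None was fully separated in the other direction (0%). Over all genes the median difference was -0.04, and 356 genes differed by 1 or more and 344 by -1 or less. Wide differences were thus about as common in both directions, while full separation at 10 samples a side ran in 1 direction only. That imbalance is not independent of the ranking by Mobp, and it depends on the cut. With 5 samples a side 187 genes were fully separated and lower, beside 344 higher. The 78 include Mobp, which the ranking itself separates, so 77 other genes were separated. Of the 78 genes, 33 (32 without Mobp) belong to the lists of oligodendrocyte genes, 4 to the astrocyte list and 1 to the microglia list. All 78 had a median in the 10 samples set aside that lay between the medians of the sides. Those samples are the middle of the same ranking, so this is not independent of how the 78 were found. Without ZT14 replicate 3, with the ranking repeated, 77 genes were fully separated and 71 of them were among the 78. Ranking by the myelin protein list without Mobp gave 83 genes, 58 of them among the 78. That ranking shared 8 rich and 8 poor samples with the ranking by Mobp, so the overlap is not independent. The count moved more under other rankings: 5 samples a side gave 344 and 15 a side gave 23, while ranking by Opalin gave 4, none of them among the 78, or 28 (8 among the 78) when ZT14 replicate 3 was left out.

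The list of structural proteins of the sheath had the highest median difference of the 24 lists. Of 24 myelin protein genes, 13 were fully separated, and the median difference was 2.17. Mobp, whose place the ranking fixed, is among them: without it 12 of 23 were separated, with a median difference of 2.15. Their summed level was 4557, 6803 and 12889 FPKM (lowest, median and highest) on the rich side and 659, 1528 and 2938 FPKM on the poor side. Without Mobp these sums were 3901, 6029 and 11018 FPKM and 642, 1477 and 2779 FPKM. In bulk RNA, more myelinating cells and more myelin RNA per cell cannot be told apart.

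Mbp, which encodes the major basic protein of compact myelin, had the highest level of the list. It measured 1918, 2824 and 6038 FPKM on the rich side and 38.3, 250 and 652 FPKM on the poor side. The lowest rich sample was thus well above the highest poor one, and the difference was 3.96.

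Proteins of the inner wrap and the outer surface followed. Mag (chromosome 7, 30899176 to 30914873), the adhesion molecule that faces the axon, measured 60.9, 120 and 190 FPKM against 0.297, 11.7 and 34.0 FPKM, a difference of 3.56 without overlap. Mog, on the outer surface of the sheath, had medians of 81.2 and 4.86 FPKM and a difference of 3.53, but overlapped narrowly: its lowest rich value was 37.6 FPKM and its highest poor value 40.7 FPKM, in ZT14 replicate 1. Cnp, a phosphodiesterase of non-compact myelin, had medians of 188 and 29.1 FPKM. Its highest poor value of 51.7 FPKM lay below its lowest rich value of 109 FPKM, although its exons overlap Dnajc7 on the other strand.

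Some genes of cell junctions were also separated. Cldn11, which seals the layers of the sheath as a tight junction, had medians of 156 and 12.6 FPKM and a difference of 3.49. The connexin genes Gjb1 and Gjc3, both expressed by oligodendrocytes, were fully separated, Gjb1 with medians of 20.0 and 1.70 FPKM and Gjc3 with 15.3 and 2.48 FPKM. Among other membrane members, Tmem88b (29.2 and 1.63 FPKM), Tspan2 (48.8 and 11.1 FPKM), Gpm6b (123 and 43.4 FPKM) and Lgi3 (11.9 and 1.95 FPKM) also did not overlap.

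The other members overlapped, and they differed in how far. Cntn2, an adhesion gene of the region beside the node, had medians of 16.7 and 1.18 FPKM, with the highest value of 89.3 FPKM in ZT14 replicate 3. Gpr37 missed separation by little, with a lowest rich value of 8.91 and a highest poor value of 9.08 FPKM. Pllp, Lpar1, Nfasc, Ninj2 and Jam3 overlapped more widely, with differences of 0.98, 0.98, 1.25, 1.72 and 0.44. Mal and Cd9 were not higher on the rich side: Mal, a gene of myelin membrane traffic that epithelia also express, had medians of 442 and 695 FPKM (difference -0.35), and Cd9, a widely expressed tetraspanin gene, had 193 and 214 FPKM (difference -0.03).

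**Figure D3:**
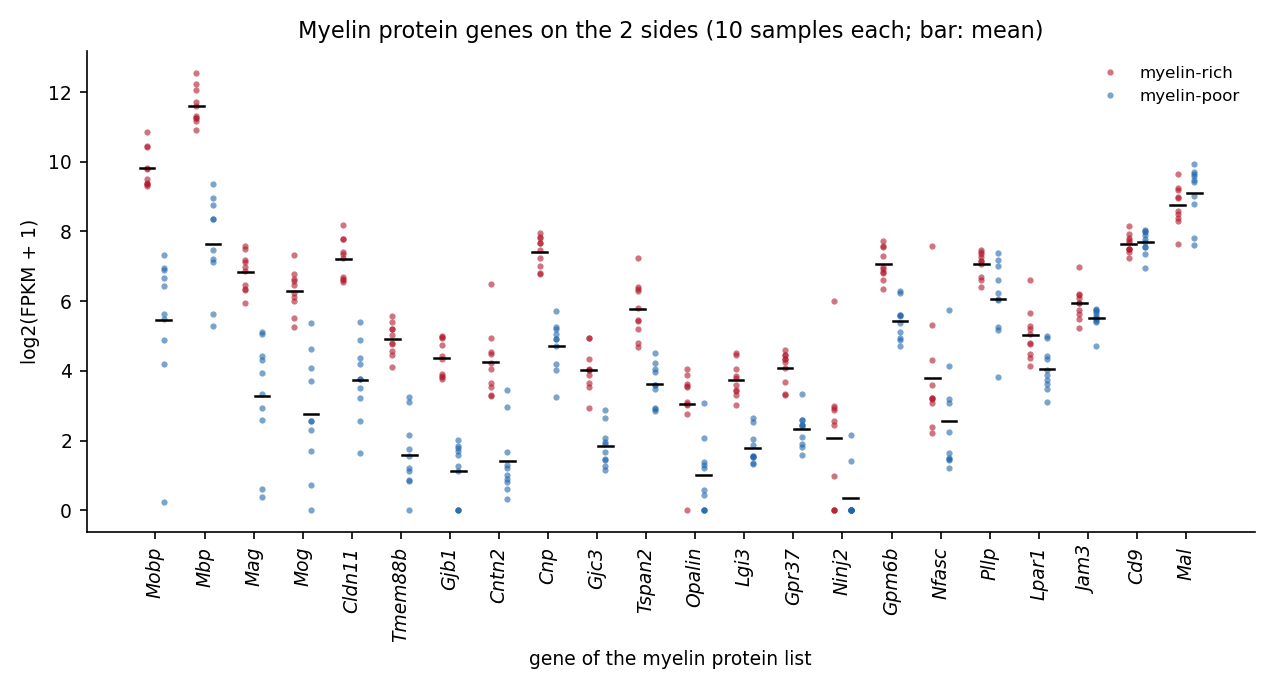
Level of 22 of the 24 myelin protein genes as log2(FPKM + 1) in the 10 myelin-rich and 10 myelin-poor samples, ordered by difference; points are samples and bars are means. Mobp, Mbp, Mag, Cldn11, Tmem88b, Gjb1, Cnp, Gjc3, Tspan2, Lgi3 and Gpm6b do not overlap, with narrow gaps for Gjc3, Tspan2 and Gpm6b. The other genes shown overlap.

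The ratio of Mbp to Mobp had overlapping ranges on the sides, with 1 sample far from the rest. Per 100 FPKM of Mobp, Mbp measured 293 to 399 FPKM on the rich side and 283 to 486 FPKM in 9 of the poor samples. In ZT4 replicate 5, at the bottom of the ranking, the ratio was 23114. There Mobp was listed at 0.166 FPKM and Mog and Opalin at 0, while Mbp was at 38.3 and Cnp at 25.4 FPKM. A low value in this table can be a failed estimate, and whether that was so for Mobp in this sample was not tested. Ratios to Mobp were not alike for all genes. Per 100 FPKM of Mobp, the astrocyte gene Gfap measured 37.7 to 62.9 FPKM on the rich side and 52.2 to 236 FPKM in the same 9 poor samples.

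Enzymes of myelin lipids and other oligodendrocyte enzymes differed as a list by a median of 1.23, with 6 of 20 genes fully separated. Klk6 (chromosome 7, 43824499 to 43832030), a secreted protease of oligodendrocytes, was the gene with the second largest difference, 4.23, and measured 49.2, 63.7 and 113 FPKM against 0, 1.14 and 22.9 FPKM. Ugt8a, whose upstream run is printed above, measured 20.0, 32.4 and 86.5 FPKM against 0.324, 1.69 and 11.8 FPKM, a difference of 3.64. Fa2h, which adds the hydroxyl group to sphingolipids of the sheath, had medians of 23.8 and 3.32 FPKM (difference 3.12). Qdpr, Plekhb1 and Adamts4 were the other separated members.

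The other members of that list overlapped. Hapln2, a matrix link protein gene of the node, overlapped narrowly despite a difference of 3.63, with a lowest rich value of 22.3 and a highest poor value of 24.4 FPKM. Car2, a carbonic anhydrase gene, and Enpp6, a choline phosphodiesterase gene, differed by 2.21 and 2.16. Ptgds, a prostaglandin synthase gene that meninges also express, had medians of 15225 and 11088 FPKM (difference 0.28). Enpp2, the autotaxin gene, had 674 and 586 FPKM (difference 0.05), and Trf, the transferrin gene, had 6038 and 4395 FPKM (difference 0.33). Ptgds, Enpp2 and Trf held most of the list's summed level, which overlapped between the sides: 13945 to 26949 FPKM on the rich and 14486 to 26292 FPKM on the poor side.

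In the list of cytoskeleton and signalling genes of oligodendrocytes 10 of 19 were fully separated, with a median difference of 1.63. Stmn4, a microtubule regulator, had medians of 77.7 and 5.58 FPKM (difference 3.23), and Tubb4a, a tubulin of myelinating cells, had 99.9 and 9.41 FPKM (difference 3.05). Ppp1r14a, an inhibitor of myosin phosphatase, and Bcas1, a gene of newly myelinating oligodendrocytes, differed by 2.95 and 2.72. Bcas1 was separated by 81.7 FPKM as its lowest rich against 72.1 FPKM as its highest poor value. Sirt2 had a smaller difference, 0.86, with 83.1 FPKM as its lowest rich and 66.3 FPKM as its highest poor value. Gsn, an actin-severing gene of many tissues, had medians of 357 and 373 FPKM.

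A further member of this list was held in the deposited table under a symbol turned into a date and was found by its Ensembl ID. Sept4, a septin gene, measured 146, 204 and 312 FPKM on the rich side and 64.5, 88.7 and 146 FPKM on the poor side. Its highest poor value, 145.5 FPKM, lay just below its lowest rich value of 146.4 FPKM. It is counted among the 78 but not in the list.

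Transcription factors of the oligodendrocyte lineage differed unevenly. Olig1 measured 20.9, 36.9 and 97.9 FPKM against 0, 1.6 and 14.4 FPKM (difference 3.70), and Olig2 had medians of 6.07 and 0.485 FPKM (difference 2.25). Nkx6-2, a factor of myelinating oligodendrocytes, had 13.3 and 1.79 FPKM (difference 2.43). These 3 were the separated members among 10 tested. Sox10 had medians of 54.3 and 33.1 FPKM and overlapped (difference 0.74); neural crest cells such as melanocytes and Schwann cells also express it. Myrf, the master factor of myelin genes, had 59.0 and 39.5 FPKM (difference 0.32), St18 had 4.10 and 0 FPKM (difference 1.79), Nkx2-2 had 1.72 and 0 FPKM (difference 1.2), and Tcf7l2 had 4.72 and 5.08 FPKM (difference -0.34).

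Genes of oligodendrocyte precursors differed less. Of 10 genes 1 was fully separated (0.466% over all genes). It was Gpr17, a receptor gene of committed precursors, with medians of 3.65 and 0.0383 FPKM (difference 2.21). Its highest poor value was 0.719 FPKM, so it passed the filter of 1 FPKM only through samples outside the poor side. Pdgfra and Cspg4, the usual markers of dividing precursors, had medians of 16.3 and 15.1 FPKM and of 4.71 and 4.84 FPKM, and fibroblasts and mural cells also express them. The list's median difference was 0.48.

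**Figure D4:**
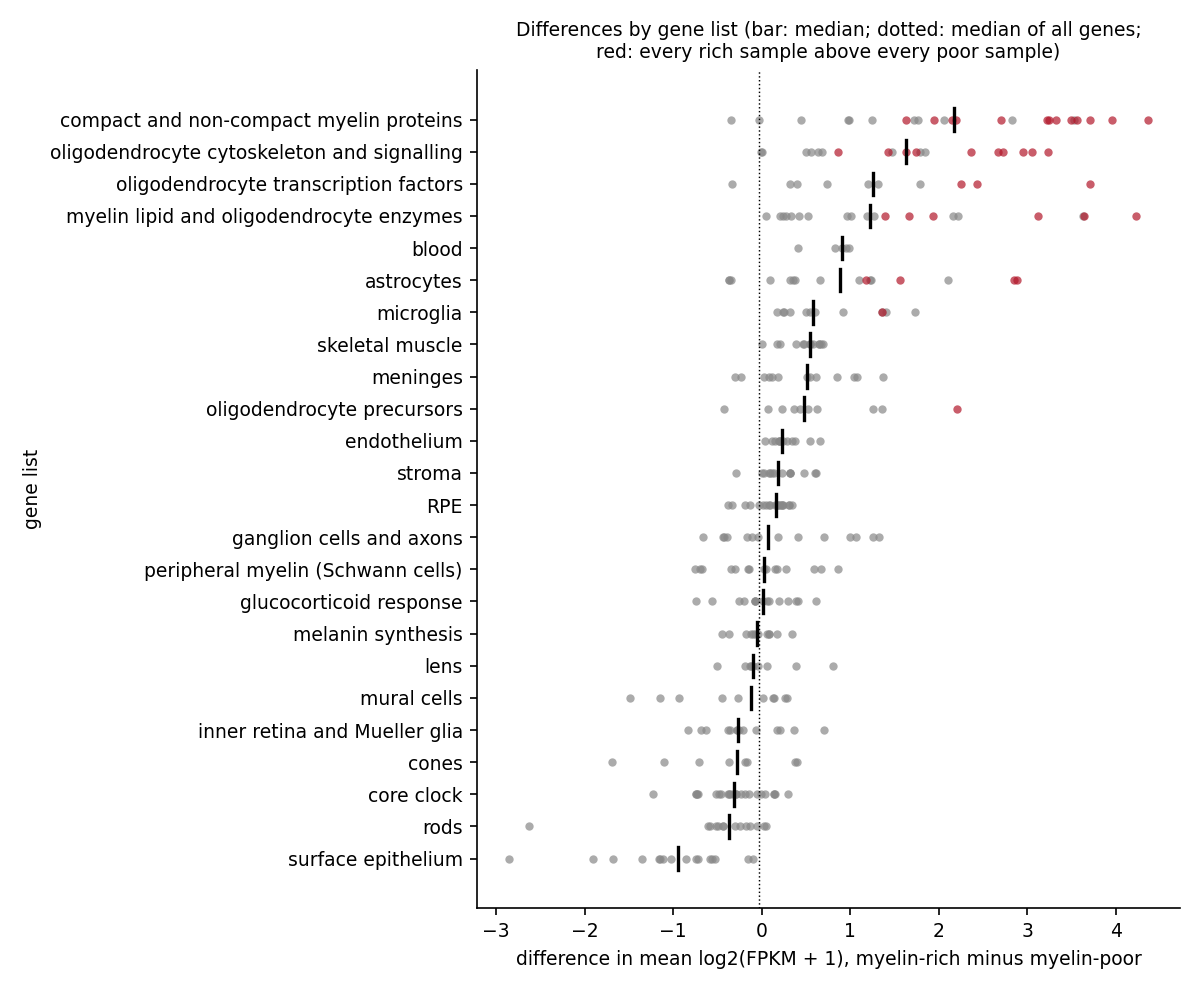
Difference of each gene between the sides, in mean log2(FPKM + 1) and rich minus poor, for 24 gene lists ordered by median (bar); red points are genes with every rich sample above every poor sample. The lists of myelin proteins, cytoskeleton, transcription factors and enzymes of oligodendrocytes lie furthest right, with medians of 1.23 to 2.17, precursors lie at 0.48, and surface epithelium lies furthest left at -0.94.

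Astrocyte genes differed unevenly. Of 16 genes 4 were fully separated, and the list's median difference was 0.88. Gfap (chromosome 11, 102887336 to 102900912), the intermediate filament of astrocytes, measured 300, 471 and 706 FPKM on the rich and 25.9, 65.4 and 129 FPKM on the poor side, a difference of 2.88. Agt, the angiotensinogen gene, had medians of 32.6 and 3.18 FPKM (difference 2.85), Aqp4, the water channel of astrocyte endfeet, had 24.2 and 7.63 FPKM (1.56), and S100b had 415 and 179 FPKM (1.18). Gja1, Slc7a10 and Fgfr3 differed by -0.37, -0.37 and -0.34, so the list did not move as a block.

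Microglia, the resident immune cells of nervous tissue, had 1 of 12 genes fully separated (0.466% over all genes). That was Sall1, with medians of 1.86 and 0.304 FPKM. Its highest poor value was 0.648 FPKM, so it too passed the filter of 1 FPKM only through samples outside the poor side. All 12 differences were above 0, from 0.18 for P2ry13 to 1.73 for Aif1, with a median of 0.57. The summed level of 14 genes of the meninges, the sheath around the nerve, was 334, 578 and 692 FPKM on the rich and 261, 432 and 609 FPKM on the poor side. None of the 13 tested genes was separated (0.466% over all genes), and their median difference was 0.51.

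Genes of peripheral myelin overlapped between the sides. None of 15 tested Schwann cell genes was separated, but only 0.466% of all genes were, so this count does not set the list apart. The list's median difference was 0.03, against -0.04 over all genes. Prx, the periaxin gene, measured 1.17, 3.28 and 9.35 FPKM on the rich and 1.83, 2.93 and 5.95 FPKM on the poor side, and Pmp22 had medians of 141 and 111 FPKM (difference 0.27). The largest difference in the list was 0.86 for Dhh and the lowest -0.75 for L1cam.

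None of 14 genes of the retinal ganglion cells, whose axons the optic nerve carries, was separated (0.466% over all genes). The median difference over 14 genes was 0.07, with 7 above 0. The neurofilament genes Nefl, Nefm and Nefh differed by 0.19, -0.40 and 1.00. Gap43, a growth cone gene, and Thy1, a surface glycoprotein gene, differed by 1.07 and 0.71, and each of these genes overlapped. Stmn2 and Uchl1 had the widest differences of the list, 1.33 and 1.25.

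Some genes outside the lists were abundant and fully separated. They were chosen after their values were seen. Fth1, the heavy chain of the iron store ferritin, measured 3704, 4665 and 7398 FPKM against 1804, 2192 and 2519 FPKM, a difference of 1.15. Fxyd1, a regulator of the sodium pump, had medians of 880 and 360 FPKM (difference 1.38), and Dbi, an acyl-CoA binding protein gene, had 539 and 301 FPKM (difference 1.01). Prnp, the prion protein gene, had 130 and 76.3 FPKM, with a difference of 0.75 and an SD on the rich side of 0.15.

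RPE genes had small differences between the sides. None of 20 was separated (0.466% over all genes), the median difference was 0.16, and the range ran from -0.38 for Trpm1 to 0.34 for Ttr. Trpm1, a channel gene of pigment cells, had medians of 343 and 483 FPKM, and Ttr, the thyroid hormone carrier transthyretin, had 5433 and 4041 FPKM. Melanin synthesis genes had a median difference of -0.06. The summed RPE list was 6981 to 19425 FPKM on the rich and 8843 to 18662 FPKM on the poor side.

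Transcripts of the ocular surface were lower on the rich side, with overlap. The 10 genes with the lowest differences, predicted genes, gene models without a name and microRNAs aside, from -3.49 to -1.99, were Smim22, Lypd2, Krt12, Cnga1, Fam83a, Slurp1, Npy, Tmprss11d, Ly6g6c and Sox15, and each of them overlapped. They were picked by difference and not by tissue: Cnga1 is a rod channel gene and Npy a neuropeptide gene. Smim22, Npy, Tmprss11d, Ly6g6c and Sox15 were listed at 0 in ZT14 replicate 3, and their differences without it are not given. Krt12, the corneal keratin, measured 3.42, 533 and 2837 FPKM on the rich and 534, 2937 and 4704 FPKM on the poor side. Lypd2 had medians of 201 and 1053 FPKM. All 16 genes of the surface epithelium list had a difference below 0, with a median of -0.94, and their summed level was 2607 to 16601 FPKM against 4228 to 21216 FPKM. Myelin RNA was thus higher and surface RNA lower on the rich side, but surface RNA did not rise steadily as Mobp fell. The surface list's median sum was 4628 FPKM on the rich side, 16258 in the samples set aside and 14246 on the poor side. Before adjustment, the limma test among time points put 11 of these 16 genes at p under 0.05, against 1452 of all 16741. After adjustment 0 of the 16 passed. ZT9 had 1 rich and 4 poor samples. The part of time of day, and of myelin and surface RNA in each other's differences, was not tested.

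Other tissues varied within both sides. Skeletal muscle genes had a median difference of 0.54, with 1100, 2864 and 9847 FPKM for the fast myosin light chain Mylpf on the rich and 1266, 1768 and 2951 FPKM on the poor side. Rod genes had a median difference of -0.37, and their summed level ran from 269 to 13586 FPKM on the rich and from 78.9 to 7046 FPKM on the poor side. Blood genes differed by a median of 0.91 over 5 tested genes. None of the genes in these 3 lists was separated (0.466% over all genes), and their part in the other differences was not tested.

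Time of day was uneven between the sides, so the same contrast was made inside each time point, with the 2 highest against the 2 lowest Mobp samples of the 5. Of 16741 genes 55 (0.329%) had both high samples above both low samples at each of the 6 time points, and 40 of these were among the 78. This overlap is not independent, because the same Mobp values ranked the samples. Of the 12 high samples 9 were on the rich side, and of the 12 low samples 8 were on the poor side. The 55 included Mobp, which the ranking fixes, and Mbp, Mag, Mog, Cnp, Cldn11, Gfap, Aqp4, Klk6, Ugt8a and Olig1. At ZT2, where Mobp differed least, Mbp averaged 2142 FPKM in the 2 high and 1138 FPKM in the 2 low samples. At ZT14 the same averages were 5423 and 319 FPKM. Opalin was separated at 4 of 6 time points, not at ZT9 and ZT14. Only Tbl1x was lower in the high samples at each time point, and it was named after its values were seen (medians 17.8 and 24.2 FPKM on the sides of 10).

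The rhythm of the tissue was then asked with the level of Mobp held as a term. A 24 h cosine with log2(Mobp FPKM + 1) as a covariate called 18 of 16740 genes (0.108%, adjusted p below 0.05, limma F test, n = 30), and the fit without Mobp also called 18 of 16741. The calls shared 17 genes. Trex1, a DNA exonuclease gene, passed only with Mobp (adjusted p = 0.0492, against 0.0745 without), and Mmp14, a membrane-bound collagenase gene, passed only without it (0.0404, against 0.0501 with). Over the 17 shared genes, adding Mobp changed the fitted amplitude, the distance from the mean to the peak, by a median of 0.01 and at most 0.03 on the log2 scale.

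Core clock genes led both fits. With Mobp as a term, Arntl, the activator BMAL1, had an amplitude of 1.57 ± 0.15 (estimate ± SE) and peaked at ZT 23.5 (adjusted p = 5.12e-07). Nr1d1, the repressor REV-ERB alpha, had 1.32 ± 0.13 with a peak at ZT 7.41, and Per2, a period gene, had 1.81 ± 0.23 with a peak at ZT 12.2 (adjusted p = 9.41e-07 and 8.84e-05). The clock genes Nr1d2, Dbp, Per3 and Per1 were also called. The calls outside the clock were Tsc22d3, Fmo1, Tspan4, Angptl7, Sgk1, Zbtb16, Leo1, Ccnd1, Ctgf and Trex1. When each sample was left out in turn, Ctgf lost its call in 13 and Trex1 in 22 of 30 fits, while the first 12 genes, down to Per1 at an adjusted p of 0.00119, kept theirs in all.

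**Figure D5:**
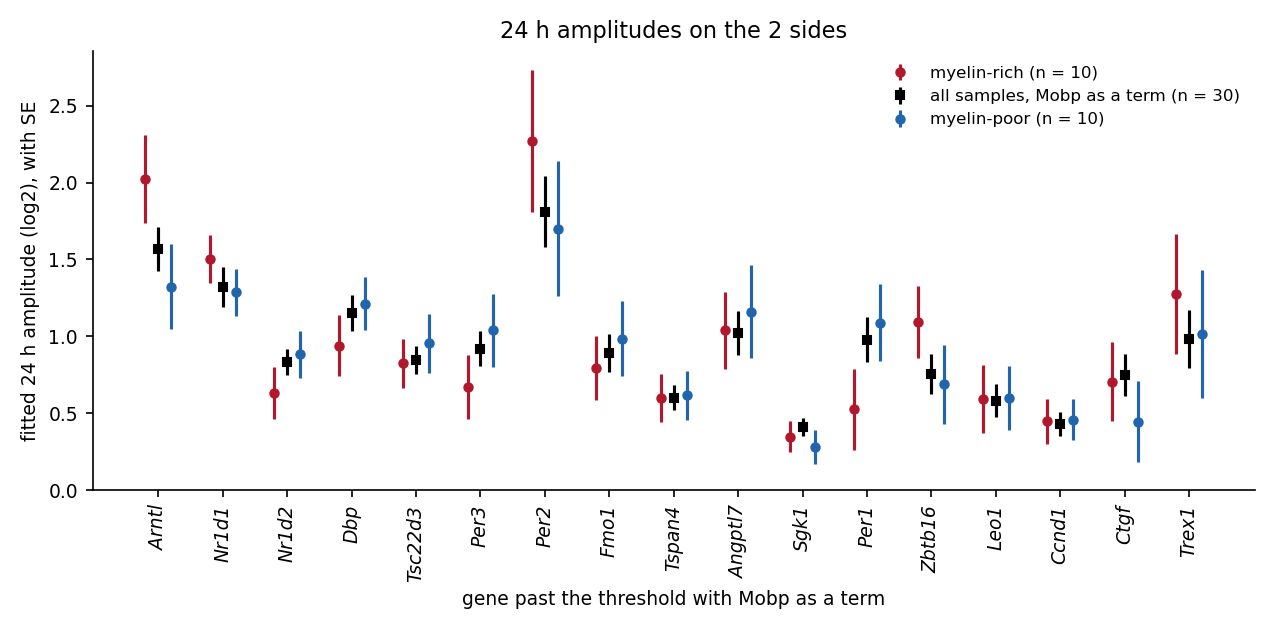
Fitted 24 h amplitude (log2, with SE) of 17 of the 18 genes past the threshold with Mobp as a term, in all 30 samples (black) and fitted separately within the 10 myelin-rich (red) and 10 myelin-poor samples (blue). Arntl reads 2.02 on the rich and 1.32 on the poor side, and no difference between sides passed the test. The rich value includes a 0 listed for Arntl in ZT14 replicate 3.

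The difference in rhythm between the sides was tested itself, with side by cosine and side by sine terms over the 20 samples. No gene passed (0 of 16741, 0%), 562 had an unadjusted p under 0.05, and the smallest adjusted p was 0.9998 for Adam32. Arntl had an amplitude of 2.02 ± 0.29 on the rich and 1.32 ± 0.27 on the poor side, peaking at ZT 23.3 and ZT 23.4. Arntl was listed at 0 in ZT14 replicate 3, against 0.905 and 3.23 FPKM in the other rich ZT14 samples. The rich amplitude of Arntl includes that 0, and a value without this sample is not given. Per1 had 0.53 ± 0.26 and 1.09 ± 0.25, and Nr1d1 had 1.51 ± 0.16 and 1.29 ± 0.15. This test had little reach: in simulated data it recovered 37.2% of differences with an amplitude of 2 and 4% of those with an amplitude of 1. A difference of the size seen for Arntl or Per1 was therefore not detectable at this sample number.

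Levels of clock genes also differed between the sides, where the time make-up moves with them. The median difference over 24 core clock genes was -0.31, and Arntl had medians of 9.71 and 4.64 FPKM while Nr1d1 had 24.9 and 55.2 FPKM. None of the 24 was separated (0.466% over all genes). The poor side held 4 ZT9 samples and the rich side 1, and its part in these differences was not tested.

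In the test of differences among time points, adding Mobp as a term raised the calls from 12 to 22, with all 12 kept. The added genes were Prg4, Per1, Slurp1, Col17a1, Kif15, Fbl, Dsp, Ccnd1, Ccnf and 1 RIKEN clone gene. Dsp, the desmoplakin gene of epithelial junctions, had an adjusted p of 0.0381 with Mobp and 0.265 without, and Col17a1, a collagen of epithelial anchoring, had 0.0280 and 0.144. Slurp1, which was among the genes lowest on the rich side, had 0.0306 and 0.134. No gene of the myelin protein list was called in any of these fits. Where Mobp was a term, Mobp itself was left out and the term can take up variation shared with the list. Only the fits without Mobp therefore bear on the list.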

How the data were processed

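RNA-seq of 30 mouse RPE samples was analysed from 1 table of gene-level FPKM that the authors deposited, with decimal commas; mm10, STAR, DESeq2 and Cufflinks are named, without versions or roles, per the submitters' processing notes. Strand use in counting is not given in the sources used here, so overlapping genes cannot be told apart. Read totals are not in the table, and depth was estimated from the size of the lowest FPKM values of genes with 1 transcript (12.4 to 22.9 M reads). Gene positions came from the GENCODE annotation of GRCm38, in which 51625 of 51904 gene IDs were found, and upstream sequences from RefSeq.

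Genes with at least 1 FPKM in at least 5 samples were kept (16741). Differences are on the log2(FPKM + 1) scale and understate the change of low genes. A value of 0 can be a failed estimate. Tests used limma 3.58.1 with an intensity trend in R 4.3.3 and Benjamini-Hochberg adjustment over all genes, with Python 3.11.15 and pandas 2.3.3 elsewhere. The fits were tested on simulated data: with Mobp as a term, 73.2% of genes given an amplitude of 1 were recovered. Over 5 draws that fit made 63 false calls. It recovered 74, 183, 232 and 249 of 250 genes at amplitudes of 0.5, 1, 1.5 and 2. The p-values measure the spread between mice. Replicate numbers follow the order of the labels' records and pair no samples.

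The members and gene lists were chosen with earlier results of these data known. Named were Mobp and Opalin, all measured myelin protein genes, the largest and smallest differences of the glial and RPE lists, the 20 largest differences among separated genes, the 10 most negative of all genes other than predicted genes, gene models without a name and microRNAs, and the genes called in the rhythm fits. Other list members and separated genes were chosen after their values were seen. Some genes are not reported here. Alternatives were the number of samples a side, the ranking gene, the pseudocount, the filter, the scaling, time points and each sample left out.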

Additional observations from a re-analysis of the deposited data

Results flagged for a closer look

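Of 124 groups of values examined, 9 had a lowest or highest sample far from the nearest other one relative to the group's range. A group was the 10 samples of a side or, for Mobp and Opalin, also the 5 mice of a time point. Chance flags about 1 in 20 groups, a rate that does not apply to Mobp on sides cut by Mobp itself. Of the 9, 5 were in ZT14 replicate 3, the myelin-rich sample with the fewest genes above 0. There Opalin was listed at 0 FPKM (nearest other rich sample 5.75), Tcf7l2 at 0 (nearest 2.77) and Dhh, a Schwann cell signal gene, at 0 (nearest 1.68). The same sample had the highest Cntn2, 89.3 FPKM (nearest 29.7), and the highest Ninj2, an adhesion gene, 62.7 FPKM (nearest 7.00).

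Among the poor samples, Mobp was 0.166 FPKM in ZT4 replicate 5, with the nearest value at 17.3 FPKM. Jam3, a junction gene, was 25.3 FPKM in ZT0 replicate 3 (nearest 40.9), and Cnga1, a rod channel gene, was listed at 0 in ZT9 replicate 4 (nearest 18.7). In the rich samples Enpp2 was 281 FPKM in ZT0 replicate 5, with the nearest value at 490 FPKM.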

How the results depend on the processing

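The number of genes fully separated and higher on the rich side was 78 and became 344 with 5 samples a side, 23 with 15 a side, 4 when ranked by Opalin, 3 with the 2 highest against the 2 lowest samples of each time point pooled, and 28 when ranked by Opalin without ZT14 replicate 3, an alternative chosen after seeing the data. The 4 genes were Epb41l3, Dixdc1, Bend6 and Opalin, and the 3 were Hcn2, Stmn4 and Lgi3, all named after their values were seen. Genes fully separated and lower numbered 0, became 187 with 5 samples a side, and 1 (Tbl1x) inside each of the 6 time points, also added after seeing the data. Leaving out each sample in turn gave 71 to 85 higher and 0 to 2 lower genes; the lower ones were Fras1 without ZT14 replicate 1, Tnrc6c and Ahnak2 without ZT14 replicate 2, 1 gene without ZT2 replicate 3, and Pdzd2 and Igsf3 without ZT9 replicate 4. It gave 11 to 16 calls among time points, 14 to 23 in the rhythm with Mobp, 0 to 0 for rhythm between sides, and 0 to 5 between eyes (1 without ZT2 replicate 1, 2 without ZT19 replicate 2, 1 without ZT4 replicate 3, 5 without ZT0 replicate 5). Time points gave 22 calls with Mobp as a term, and eyes gave 1 (Tnk1, adjusted p = 0.0463, limma) with a pseudocount of 0.1. For make-up, leaving out each sample gave exact p-values of 0.355 to 0.895 by time, 0.628 to 1 by eye and 0.523 to 1 by animal number run. Among named genes, Cnga1 differed by -2.63 and by 1.42 when ranked by Opalin without ZT14 replicate 3. The causes were not tested. No paired analysis was possible because the labels give no replicate numbers and each sample is a separate mouse. Depth limits genes near 1 FPKM.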

Other observations

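Of the 78 separated genes 40 were in no list, and 6 of these, chosen after their values were seen, are given here. Kif5a, a motor of axonal transport, differed by 2.15, Nnat, the neuronatin gene, by 2.62, and Sh3gl3, an endophilin gene, by 2.85. Kcna1, a potassium channel gene of the region beside the node, differed by 1.34, and Hcn2, a pacemaker channel gene, by 1.6. The smallest difference among the 78 genes was 0.69, for Pea15a.

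Apod, the apolipoprotein D gene, measured 387, 529 and 964 FPKM on the rich side and 149, 200 and 303 FPKM on the poor side and did not overlap. Hemoglobin Hbb-bs, a marker of blood, measured 236, 500 and 1276 FPKM on the rich and 165, 298 and 604 FPKM on the poor side and overlapped. The clock output factor Hlf had medians of 30.7 and 75.7 FPKM, the most negative difference of the core clock list at -1.23.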
